A study of Mus musculus with 8 samples.

Results

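The comparison described here set mouse embryonic stem (ES) cells lacking both Jmjd1a and Jmjd1b against cells lacking Jmjd1b alone, and so varied Jmjd1a status in cells without Jmjd1b. The arrays were chosen by title: 2 of double-knockout cells (double-KO) and 2 of Jmjd1b-knockout cells (Jmjd1b-KO), which are 4 of the 8 arrays of the series. The other 4 arrays were 2 of wild-type cells (WT) and 2 of cells lacking Jmjd1a alone (Jmjd1a-KO). They entered the fit and a test of whether the change that went with Jmjd1a status differed with and without Jmjd1b. Each array measured RNA of 1 sample on an Affymetrix mouse platform, from 200 ng of total RNA.

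WT cells were Jmjd1a+/+; Jmjd1b+/+. Jmjd1a-deficient cells go back to a single line, 31-1. Jmjd1b-deficient lines named D23.6 and D4.1 (Jmjd1bΔ/1lox2FRT) came from a targeted line, YY90, after infection with an adenovirus carrying Cre. For the double knockout, conditional Jmjd1b alleles were put into line 31-1, giving lines #117 and #131 (Jmjd1aΔ/Δ; Jmjd1b2lox1FRT/2lox2FRT). These then received MerCreMer, a Cre recombinase that acts once 4-hydroxytamoxifen (OHT) is given, and the protocol lists 800 nM OHT for removing the conditional allele. All cells grew in medium with leukemia-inhibiting factor. The double-KO and Jmjd1b-KO groups therefore differ in parental line and in how Cre was supplied as well as in Jmjd1a, and these cannot be told apart. The labels call the arrays biological replicates but do not say which line gave which array, so p-values measure only the spread between these samples.

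Jmjd1a and Jmjd1b, listed on the array under the symbols Kdm3a and Kdm3b, encode related enzymes that remove methyl groups from lysine 9 of histone H3 (H3K9). The mono- and dimethyl forms of this mark are placed in ES cells mainly by the partners G9a (Ehmt2) and GLP. The dimethyl form is found at silent genes. In ES cells H3K9 methylation is tied to the silencing of germline genes, repeats and one copy of some imprinted genes, often together with DNA methylation.

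The deposited values are log2 levels, 1 per probe set (a group of probes for one transcript). Of 45101 probe sets, 11502 (25.5%) spanned at least 0.01 over the 8 arrays and were used; the others, called flat below, hold no measured difference. They gave 7181 genes, each read from its brightest usable probe set. A gene was called where limma's moderated test gave a Benjamini-Hochberg adjusted p under 0.05 over those 7181 genes, and differences are log2 differences given with their standard error (SE) over 2 arrays a group. Array medians over all probe sets, 74.5% of them flat, lay between 6.80 and 6.81. Over the probe sets used, the medians were 8.83 and 8.82 in Jmjd1b-KO and 8.92 and 8.89 in double-KO. The SD of the difference between the 2 arrays of a group, over genes, was 0.12 in Jmjd1b-KO and 0.29 in double-KO. As a check of RNA quality, the 3′ minus 5′ signal of Actb was 0.50 and 0.61 in Jmjd1b-KO and 0.61 and 0.54 in double-KO.

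One double-KO array stood apart in Y-linked transcripts. Eif2s3y, a Y-linked translation factor gene, read 12.17 and 3.73 on the double-KO arrays and 9.14 and 11.66 on the Jmjd1b-KO arrays. Uty read 9.49 and 4.06 in double-KO against 9.10 and 8.94 in Jmjd1b-KO, and Kdm5d read 7.85 and 5.06 against 6.76 and 6.85. Replicate 2 of the double-KO group was thus low in these 3 Y-linked genes. Jmjd1a-KO replicate 2 was low in the same genes, at 3.19 against 11.72 in Eif2s3y, 3.96 against 8.97 in Uty and 5.21 against 6.35 in Kdm5d. The part of this difference in other results was not tested beyond leaving the array out. Without double-KO replicate 2, 1718 genes were called higher and 1451 lower, and all 30 of the largest changes named below were called in the same direction. ES cell markers were measured for 7 of 7 genes, with array means of 11.17 and 11.84 in double-KO and 11.33 to 11.40 in Jmjd1b-KO.

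The targeted gene was read first. Kdm3a was at 12.80 and 12.83 in Jmjd1b-KO and at 4.60 and 4.77 in double-KO, a difference of -8.13 ± 0.10 (SE; adjusted p = 1.88e-06). Jmjd1a-KO cells were as low, at 5.08 and 4.87. Kdm3b read 7.07 and 7.10 in Jmjd1b-KO, 7.06 and 7.66 in double-KO, and 9.91 and 9.96 in WT. Both groups of the comparison were therefore below WT in Kdm3b, and their difference was 0.28 ± 0.19 (adjusted p = 0.258). That value came from double-KO replicate 2: without replicate 1 it was 0.58 and called, and without replicate 2 it was -0.02. Another Kdm3b probe set was flat, at 7.58.

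With Jmjd1b absent, loss of Jmjd1a came with a wide change in the transcriptome. Of 7181 genes, 2034 (28.3%) were called higher in double-KO than in Jmjd1b-KO and 1687 (23.5%) lower, together 51.8%. Differences of at least 1 on the log2 scale, a factor of 2 or more, were called for 483 genes higher (6.73%) and 386 lower (5.38%). The arrays of the groups did not overlap for 5961 genes (83%). These shares are the background against which the gene groups below are read. The split between higher and lower depended on scaling: 54.7% of calls were higher as deposited, 47.5% after quantile normalization and 44.9% after median centring, which moved the median of all genes from 0.02 to -0.02 and -0.05. The counts fell to 1199 higher and 997 lower without Jmjd1b-KO replicate 2, and to 1310 and 1007 without Jmjd1b-KO replicate 1.

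Among the 15 largest rises were an imprinted zinc finger gene, a muscle-type actin gene and an interferon-induced gene. Plagl1, a paternally expressed zinc finger gene, read 6.43 and 6.44 in Jmjd1b-KO and 11.36 and 10.21 in double-KO, a rise of 4.35 ± 0.51 (adjusted p = 0.00132). Frmd4b, a scaffold protein gene, rose by 4.18 ± 0.25, and Id4, an inhibitor of helix-loop-helix factors, by 4.11 ± 0.54. Gbp2, an interferon-induced GTPase, read 6.68 and 6.80 against 11.03 and 10.44, and Usp17la, a deubiquitinase gene, rose by 3.84 ± 0.06. The other 10, with rises between 3.34 and 3.84, were Ptn, Snhg14, Acta2, Lpar6, Kitl, Nrk, Dcaf12l1, Tox3, Cdh2 and Dusp4. Kitl encodes the ligand of the receptor Kit, Ptn a secreted growth factor, Cdh2 N-cadherin and Dusp4 a phosphatase of MAP kinases. Some of these genes were spread between the double-KO arrays: Id4 read 11.36 and 9.55, and Ptn 9.81 and 8.15, in each case still above both Jmjd1b-KO arrays.

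After Kdm3a, the deepest falls were in Plac8, Rian, Rhox5, Fos and Nupr1. Plac8, first described in placenta, averaged 11.81 over the 2 Jmjd1b-KO arrays and read 5.95 and 6.09 in double-KO, a fall of 5.79 on the log2 scale (SE 0.21, adjusted p = 7.32e-05). The double-KO values lie below the lower quartile of all values, 6.344, and no background measure was used here, so no fold is given. Rhox5, an X-linked homeobox gene known to be silenced by DNA methylation, read 14.11 and 13.77 against 8.46 and 8.73, with WT at 10.61 and 10.68. Fos, an immediate early transcription factor, read 12.14 and 12.60 against 7.51 and 6.90, with WT at 6.13 and 6.34. For Rhox5 and Fos the Jmjd1b-KO arrays were thus the highest of the series, while for Plac8 the WT arrays, at 12.03 and 12.13, were as high. Phlda2, Plekha4, Pcolce, Stra8, Meg3, Ak7, 1700097N02Rik, Pla2g1b and Dnmt3l completed the list, with differences from -5.05 to -3.97. These rises and falls were picked from the same arrays by size and are those of each gene's brightest usable probe set. In 4 of the genes another usable probe set changed little and was not called. The range was -3.98 to 0.05 in Pla2g1b, -4.95 to -0.02 in 1700097N02Rik, -5.01 to -0.18 in Meg3 and 0.12 to 3.68 in Nrk. Every one of the 15 rises and 15 falls was called in the same direction in each alternative fit, except that 1 of the 30 missed the threshold when the flat genes were kept in the fit.

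**Figure D1:**
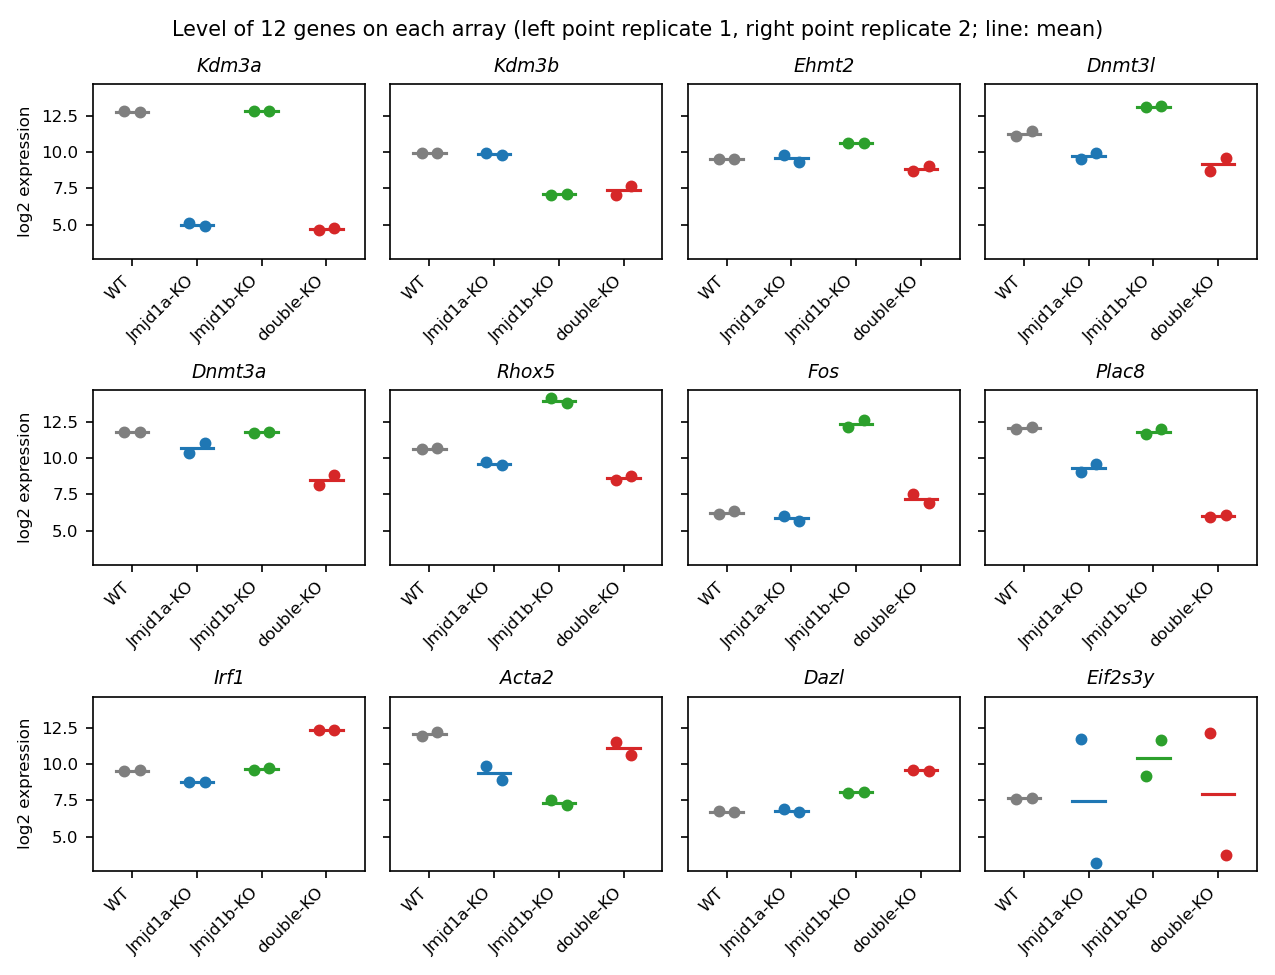
The log2 level of 12 genes on each of the 8 arrays, by group, with a line at each group's mean of 2 arrays. Kdm3a is low in both groups without Jmjd1a, the Jmjd1b-KO arrays are the highest for Ehmt2, Dnmt3l, Rhox5 and Fos, and Eif2s3y separates the 2 double-KO arrays.

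The integrated stress response group was lower in double-KO almost throughout. In this response, phosphorylation of the initiation factor eIF2 raises translation of ATF4, which induces genes for amino acid synthesis and import. ATF4 binds a composite element with CEBP proteins, written here as TGATGNAA. Of 28 measured members, 25 were lower in double-KO than in Jmjd1b-KO (89.3%, against 23.5% over all genes). Of the 28, 0 were higher and 20 were lower by at least 1. The median was -1.35, against 0.02 over all genes tested. Promoter stretches of 3 genes with the element are shown because these genes fell with the group and hold it close upstream; capitals mark the element, read on either strand.
Nupr1: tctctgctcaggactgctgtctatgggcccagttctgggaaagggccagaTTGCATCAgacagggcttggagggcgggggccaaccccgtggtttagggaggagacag
Chac1: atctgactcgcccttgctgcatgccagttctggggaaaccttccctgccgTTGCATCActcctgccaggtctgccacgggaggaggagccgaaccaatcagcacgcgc
Asns: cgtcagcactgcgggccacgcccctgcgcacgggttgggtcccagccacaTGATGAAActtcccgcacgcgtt
They come from the RefSeq promoter windows of GRCm38.p6, at chr7:126625523-126625630 (minus strand), chr2:119350999-119351106 (plus strand) and chr6:7693210-7693282 (minus strand). The element began 110, 193 and 23 bases before the start of Nupr1, Chac1 and Asns. It was found in 6 of the 24 group members with a promoter window, or 20% of their 30 windows, against 3.97% of all 32851 windows of the same length; a match is a description of letters only.

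Nupr1, a small stress-induced chromatin protein and the deepest fall of the group, read 10.81 and 11.29 in Jmjd1b-KO and 5.42 and 6.36 in double-KO, a difference of -5.16 ± 0.34. Chac1, which degrades glutathione, read 9.53 and 9.79 against 5.86 and 7.07, a difference of -3.20 ± 0.37. Atf4 itself read 12.25 and 12.24 against 10.53 and 11.09, a difference of -1.43 ± 0.17 (adjusted p = 0.00139). In each of these genes both double-KO arrays lay below both Jmjd1b-KO arrays, and replicate 1 was the lower of the double-KO arrays. Over all genes tested, 83% had no overlap in 1 or the other direction. Enzymes of serine and one-carbon metabolism were in the group: Mthfd2 fell by 3.59, Psph by 2.32, Psat1 by 1.99, Shmt2 by 1.17 and Phgdh by 0.73. Amino acid transporters fell as well, Slc7a1 by 3.30, Slc7a3 by 1.94, Slc7a5 by 1.27 and Slc3a2 by 1.12. So did Cth of cysteine synthesis, by 3.39, the transaminase Gpt2, by 2.52, the asparagine synthetase gene Asns, by 1.15, and the pseudokinase gene Trib3, by 1.67. The 3 members without a call were Ddit4 (-0.79), Ddit3 (-0.46) and Slc6a9 (-0.06).

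Aminoacyl-tRNA synthetases, which charge tRNAs and several of which are ATF4 targets, moved with them. Of 18 cytosolic members measured, 17 were lower (94.4%, against 23.5% over all genes) and 0 higher, with a median of -0.69. Cars read 10.13 and 10.24 in Jmjd1b-KO against 8.04 and 8.56 in double-KO (-1.89 ± 0.17), and Aars read 11.88 and 12.03 against 10.28 and 10.86 (-1.38 ± 0.18). Their arrays did not overlap between the groups, nor did those of 83% of all genes tested. Qars, at 0.08 ± 0.05, was the member without a call, and Rars, at -0.19 ± 0.05, was the smallest called fall.

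The comparison of Jmjd1a-KO with WT shares no array with the present one and serves as its counterpart with Jmjd1b present. In it, 732 of all genes were called higher (10.2%) and 569 lower (7.92%), together 18.1%. Of the integrated stress response members, 0 were higher and 5 lower, with a median of -0.19. The interaction, the change without Jmjd1b minus the change with it, was called for 26.4% of all genes, 14.1% positive and 12.2% negative. It was negative and past the threshold for 21 of the 28 members. For Nupr1 it was -4.10 ± 0.48 and for Mthfd2 -3.29. Among synthetases it was negative for 9 of 18 members.

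Cholesterol synthesis was lower in most but not all of its steps. These enzymes carry acetyl units through mevalonate and squalene to sterols, and their genes are induced by SREBP2 when sterols are low. Of 19 measured members, 13 were lower (68.4%), 8 of them by at least 1, and 2 were higher (10.5%). The shares over all genes were 23.5% and 28.3%, and the median of the 19 was -0.76. Lss, the lanosterol synthase, read 10.70 and 10.82 in Jmjd1b-KO and 8.16 and 8.64 in double-KO, a difference of -2.36 ± 0.22 (adjusted p = 0.0007). Msmo1, a sterol demethylase, fell by 1.90, Mvd of the mevalonate steps by 1.80, Sc5d by 1.27, Fdft1 by 1.15 and Fdps by 1.04. Sqle, the squalene epoxidase, read 11.01 and 11.07 against 10.09 and 10.45 (-0.76 ± 0.13). The arrays of the groups did not overlap in any of these genes, nor in 83% of all genes tested. Insig1, a sterol sensor that holds SREBP in the endoplasmic reticulum, went the other way: 9.25 and 9.36 against 10.30 and 10.78, a rise of 1.24 ± 0.18. Cyp51, the other member called higher, rose by 0.59 ± 0.13, and Hmgcs1 (0.09) and Srebf2 (-0.14) had no call. Without Jmjd1b-KO replicate 2, 1 member was called higher. With Jmjd1b present, loss of Jmjd1a came with 6 members called higher and 0 lower, median 0.27. The interaction was negative for 13 of 19 and positive for 0, among them Lss at -2.71 and Mvd at -2.42. The letters TCACNCCAC, an SREBP element, stood in 1 of the 15 members with a promoter window, Hmgcs1, and in 1.24% of all windows.

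**Figure D2:**
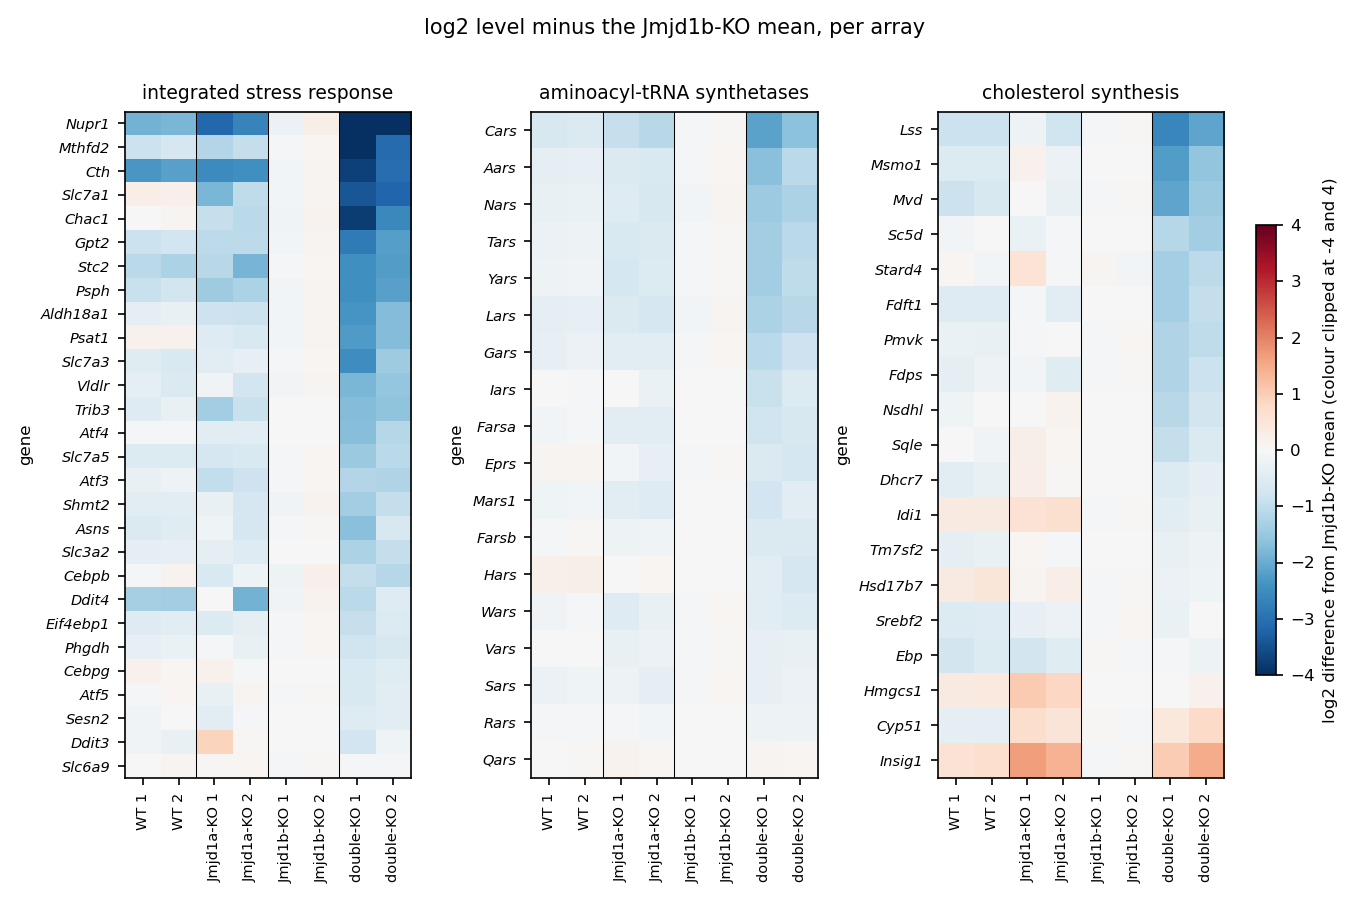
Each row is a gene of the integrated stress response, the aminoacyl-tRNA synthetases or cholesterol synthesis, and each column 1 of the 8 arrays; colour gives the log2 level minus the Jmjd1b-KO mean, clipped at -4 and 4. The 2 double-KO columns are blue through nearly all rows of the first panels, and the rows of Insig1 and Cyp51 in the last panel are red in double-KO.

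Ehmt2, which writes H3K9 methylation, and Dnmt3a, which writes DNA methylation, were among the genes that fell. Ehmt2, the catalytic subunit G9a, read 10.63 and 10.61 in Jmjd1b-KO and 8.67 and 9.06 in double-KO, a difference of -1.75 ± 0.19 (adjusted p = 0.00101). Its WT level was 9.53 and 9.55, so Jmjd1b-KO lay above WT and double-KO below it. Another Ehmt2 probe set was flat at 7.06. Of 12 measured H3K9 enzymes and readers, 4 were lower (33.3%, against 23.5% over all genes). Of these, Kdm3a is the deleted gene, so its fall was given by the design. The others were Ehmt2, Prdm2 (-0.33) and Cbx1. The writers Ehmt1, Setdb1 and Setdb2 were flat. Cbx5, the gene of the reader HP1 alpha, was the 1 called higher, at 0.92 ± 0.12. Cbx5 is uncertain, since its 3 usable probe sets ranged from -0.45 to 0.92 and were called in both directions. Suv39h2 (-0.11), Trim28 (0.01) and Kdm1a (-0.11) had no call. Jmjd1c, the third member of the Jmjd1 family, read 10.70 and 10.64 against 10.24 and 10.49 and was not called (-0.30 ± 0.11, adjusted p = 0.0707).

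Among DNA methylation genes, Dnmt3l, the cofactor of the de novo enzymes, read 13.12 and 13.16 in Jmjd1b-KO and 8.72 and 9.61 in double-KO, a difference of -3.97 ± 0.30. Dnmt3a, a de novo methyltransferase, read 11.73 and 11.83 against 8.15 and 8.81, a difference of -3.30 ± 0.28. In both genes the interaction was negative and past the threshold, at -2.41 for Dnmt3l and -2.17 for Dnmt3a. Tet2, which oxidises methylcytosine, fell by 1.52, Mbd3 by 0.56 and Hells, a remodelling factor, by 0.48. Of 11 measured members, 5 were lower and 1 higher (Uhrf2, 0.23 ± 0.06). The share called lower, 45.5%, stands beside 23.5% over all genes. Dnmt3b read 12.32 and 12.42 against 12.12 and 11.74 (-0.44 ± 0.15) and missed the threshold at adjusted p = 0.0525, and Uhrf1, the maintenance factor, was at -0.12. Among 12 Polycomb genes, 3 were higher (25%) and 4 lower (33.3%), against 28.3% and 23.5% over all genes. The largest were Mtf2 at -0.81 and Rnf2, a ubiquitin ligase, at 0.68. Without Jmjd1b-KO replicate 2 the Polycomb counts were 1 and 2, without double-KO replicate 2 they were 1 and 4, and without Jmjd1b-KO replicate 1 the DNA methylation genes called lower numbered 3. Uhrf2 lost its call without double-KO replicate 2 or either Jmjd1b-KO array.

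Germline genes listed as silenced by DNA methylation outside the germline split in direction. Not all were silent in these ES cells, since Stra8 read 11.34 and 11.45 in WT. Many of the listed genes are repressed in ES cells by an E2F6 and MGA complex that reads the letters CACGTG. Of 18 measured, 8 were higher in double-KO (44.4%), 6 were lower (33.3%) and the median was 0.06. The shares over all genes were 28.3% and 23.5%. On the lower side, Stra8, which starts meiosis in response to retinoic acid, read 10.87 and 11.07 in Jmjd1b-KO and 6.03 and 7.20 in double-KO (-4.35 ± 0.35). Hormad1, a protein of the meiotic chromosome axis, read 9.54 and 9.74 against 6.87 and 7.22 (-2.59 ± 0.14), and Sohlh2 and Piwil2 fell by 1.58 and 1.07. On the higher side, Dazl, an RNA-binding protein of germ cells, averaged 8.05 in Jmjd1b-KO against 9.60 and 9.55 in double-KO, a rise of 1.53 ± 0.08 (adjusted p = 0.000137). D1Pas1 and Slc25a31 rose by 1.09 and 1.07, and Mael, of the piRNA pathway, by 0.86 ± 0.15. Both directions therefore hold genes whose arrays did not overlap, which was so for 83% of all genes tested. A promoter from each direction is shown, with CACGTG in capitals.
Hormad1: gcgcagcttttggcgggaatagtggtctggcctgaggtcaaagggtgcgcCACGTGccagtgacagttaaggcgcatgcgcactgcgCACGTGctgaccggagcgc
Mael: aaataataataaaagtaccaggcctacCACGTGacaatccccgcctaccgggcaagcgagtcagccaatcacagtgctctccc
They lie at chr3:95559570-95559675 (plus strand) and chr1:166238912-166238994 (minus strand) of GRCm38.p6, from the RefSeq windows. CACGTG stood in 9 of the 16 members with a window, or 61.1% of their 18 windows, against 7.15% of all windows. It was in genes that fell (Hormad1), rose (Mael, Sycp1, Ddx4, Taf7l, Slc25a31) and had no call (Sycp3, Stk31, Stag3). With Jmjd1b present, loss of Jmjd1a came with 0 members called higher and 9 lower, and the interaction was positive for 8 and negative for 2. Tex19.1, D1Pas1 and Mael had calls of opposite direction in the 2 comparisons: Mael rose by 0.86 without Jmjd1b and fell by 0.63 with it. Without Jmjd1b-KO replicate 1, 5 members were called higher.

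Of 3 measured genes of the X-linked Rhox and Xlr clusters, 2 were lower (66.7%, against 23.5% over all genes) and 0 higher. Beside Rhox5, Rhox6 read 8.66 and 8.56 in Jmjd1b-KO and 7.46 and 6.79 in double-KO (-1.48 ± 0.32). Rhox9, at -0.91 ± 0.31, was not called, and without either Jmjd1b-KO array 1 of the 3 was called. Genes of the 2-cell-like state, a rare state of ES cultures with transcripts of early embryos, were measured for 5 of 18 listed members. Among these 5, 4 were higher (80%) and 1 lower (20%), against 28.3% and 23.5% over all genes. Dux and the Zscan4 genes on the list could not be read, since the array lacks probe sets specific to them. Tcstv3 and Tdpoz1 were flat. The counts describe the measured genes only, and a change of the wider 2-cell-like group was not tested. Usp17la read 6.32 and 6.36 in Jmjd1b-KO and 10.18 and 10.19 in double-KO, with WT at 5.66 and 5.75, so the double-KO arrays stood apart from all others. Tcstv1 rose by 1.39 ± 0.10, Zfp352 by 0.69 and Arg2 by 0.47. Pramel7, at -0.51, was called lower at adjusted p = 0.0499 and lost that call in 9 of the alternatives. Usp17la has many near-identical copies, so its probe set may read more than 1 gene.

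Among the imprinted genes called, paternally expressed members were higher and most maternally expressed members lower. Of 14 measured paternally expressed genes, 10 were higher (71.4%) and 0 lower, with a median of 0.74. The shares over all genes were 28.3% higher and 23.5% lower. Beside Plagl1, Ndn, a MAGE family gene of the Prader-Willi region, read 8.55 and 8.76 in Jmjd1b-KO and 11.13 and 10.70 in double-KO, a rise of 2.26 ± 0.20. Nnat, Mest and Sgce rose by 1.87, 1.56 and 1.34, and the growth factor gene Igf2 by 0.85 ± 0.10. Snhg14, a noncoding host transcript of the Prader-Willi region outside the list, rose by 3.84 ± 0.65. Slc38a4 (0.02) and Nap1l5 (-0.17) had no call; for Slc38a4 the mean of its probe sets gave -0.47 and was called lower.

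Of 14 measured maternally expressed genes, 7 were lower (50%), 6 of them by at least 1, and 1 was higher (7.14%). The shares over all genes were 23.5% and 28.3%. The median of the 14 was -0.12, since the other 6 had no call. All 3 noncoding RNAs of the Dlk1-Dio3 cluster on the list fell: Rian read 10.61 and 10.86 in Jmjd1b-KO and 5.51 and 4.85 in double-KO, Meg3 10.08 and 10.43 against 5.98 and 5.85, and Mirg 7.44 and 7.71 against 5.92 and 5.81. The 3 genes were as low in Jmjd1a-KO cells, with Rian at 5.15 and 4.83, and their interaction was not called (1.16, 0.60 and 0.78). Rian and Meg3 lay below the lower quartile of all values, 6.344, on every Jmjd1a-KO and double-KO array. At such levels a further fall may not be measured, so the interaction cannot show equal effects. Phlda2, a growth-limiting placental gene, read 11.55 and 11.89 against 6.44 and 6.90, and its interaction of -2.94 passed the threshold. Grb10, an adaptor of growth factor receptors, and Cdkn1c, a cell cycle inhibitor, fell by 2.20 and 1.14. Cdkn1c had a positive interaction of 2.53, since it fell by 3.67 with Jmjd1b present. Calcr, the calcitonin receptor gene, was the member that rose, by 1.77 ± 0.17.

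**Figure D3:**
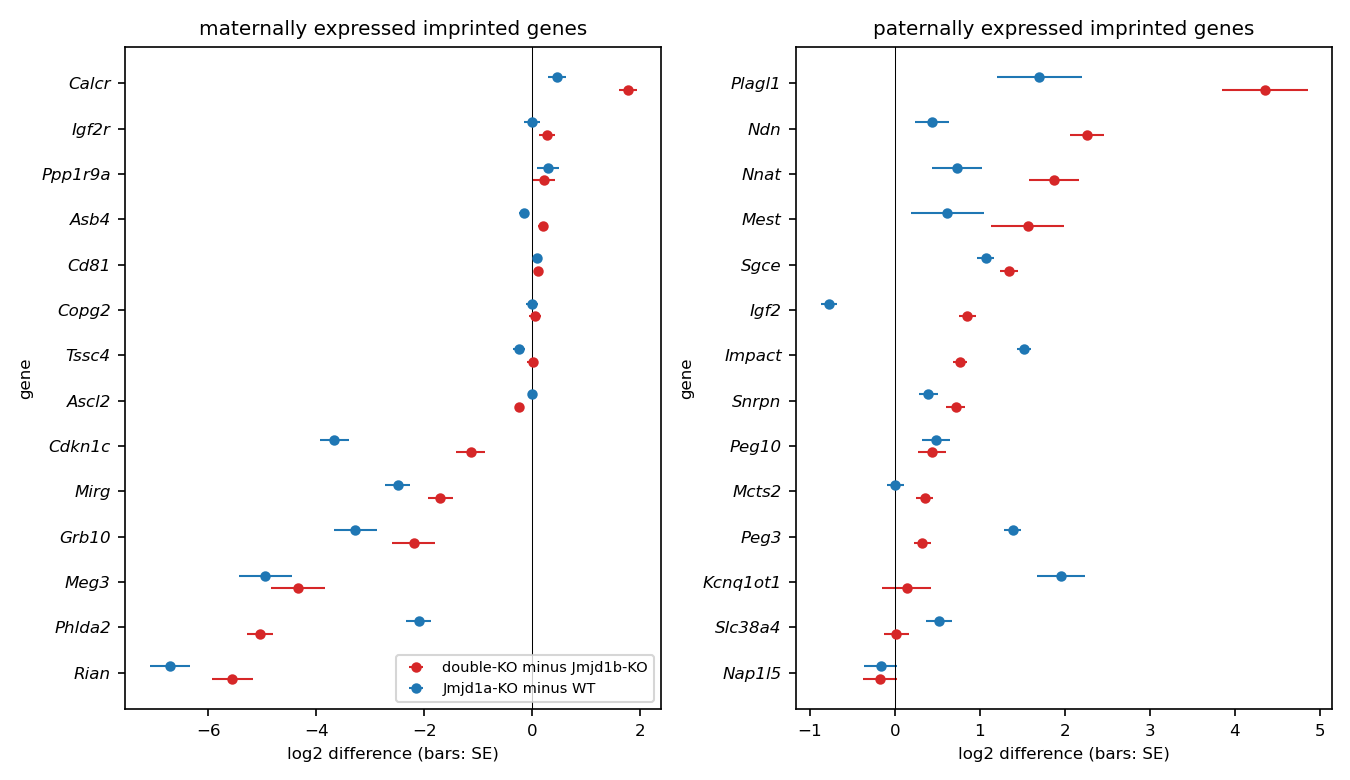
Log2 differences with SE bars for 14 maternally (left) and 14 paternally (right) expressed imprinted genes, in red for double-KO minus Jmjd1b-KO and in blue for Jmjd1a-KO minus WT, each from 2 arrays a group. Rian, Meg3, Mirg and Grb10 lie far to the left in both comparisons, and Plagl1 and Ndn lie to the right of their blue points.

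Pluripotency genes did not move as a block. Of 9 core genes, 3 were higher (33.3%) and 0 lower, against 28.3% and 23.5% over all genes. The 3 were Nanog (0.92 ± 0.21), Sall4 (0.67 ± 0.12) and Sox2 (0.55 ± 0.11). Pou5f1, the gene of Oct4, read 12.59 and 12.67 in Jmjd1b-KO and 12.07 and 12.57 in double-KO (-0.31 ± 0.16). Of 16 naive genes, which mark the ground state held by leukemia-inhibiting factor, 7 were higher (43.8%) and 0 lower, median 0.74. Zfp42, known as Rex1, read 11.55 and 11.40 against 13.01 and 13.44, a rise of 1.75 ± 0.15. Dppa3 and Klf2 rose by 1.06 and 0.89. The 2 double-KO arrays disagreed for others of this group. Fgf4 read 7.58 and 10.37 against 11.11 and 11.24 in Jmjd1b-KO, and Esrrb, an orphan nuclear receptor, read 7.68 and 9.58 against 9.55 and 9.51. Nr0b1 read 8.60 and 10.19 against 10.79 and 10.44. Replicate 1 was the low array in each, and none of the 3 was called. Without double-KO replicate 2, 6 naive and 3 core genes were called lower, so the absence of falls rests on that array; without replicate 1, 1 naive gene was called lower. Without Jmjd1b-KO replicate 2, 1 core gene was called higher. Klf4 was -0.14 ± 0.45 and, without double-KO replicate 1, 0.61 and called higher.

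Genes of the formative and primed epiblast were called at near the shares over all genes, 28.3% higher and 23.5% lower. Of 15 measured, 5 were higher (33.3%) and 3 lower (20%). Fgf5, a growth factor of primed cells, read 6.19 and 6.20 in Jmjd1b-KO and 9.22 and 8.46 in double-KO, a rise of 2.64 ± 0.28. Cdh2 rose by 3.36, while Etv5 and Etv4, targets of FGF signalling, fell by 1.52 and 0.81. Otx2 (0.23) and Zic2 (-0.27) had no call. In the BMP and Nodal group, 4 of 13 were higher (30.8%) and 2 lower (15.4%). The ligand gene Bmp4 fell by 1.78 ± 0.29, whereas Id4, Id2 and the Nodal inhibitor Lefty1 rose by 4.11, 2.44 and 1.22. Id2 read 6.91 and 6.65 against 9.88 and 8.56, and Id1 (0.51) and Id3 (1.04) had no call. The epiblast genes called lower numbered 5 without double-KO replicate 2 or either Jmjd1a-KO array, and those called higher 3 without either Jmjd1b-KO array.

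Basement membrane and endoderm genes were mostly higher. Of 11 measured, 9 were higher (81.8%), 6 of them by at least 1, and 2 lower (18.2%), with a median of 1.19. The shares over all genes were 28.3% and 23.5%. Col4a1, a chain of type IV collagen, read 7.41 and 7.33 in Jmjd1b-KO and 10.21 and 9.57 in double-KO, a rise of 2.52 ± 0.23 (adjusted p = 0.000578). Col4a2 and the laminin genes Lama1, Lamb1 and Lamc1 rose by 1.84, 1.93, 0.99 and 0.82. Of the endoderm transcription factors measured, Gata6 read 6.65 and 6.65 against 7.08 and 7.11, and Sox17 5.86 and 5.75 against 7.27 and 6.72, rises of 0.44 and 1.19. Of the defining endoderm markers, Gata4, Foxa2 and Sox7 were flat at 6.24 to 6.69, and Gata6, Sox17 and Dab2 had array means of 6.21 to 6.25 in Jmjd1b-KO and 6.99 to 7.38 in double-KO. The part of these markers in the result was not tested, and in bulk RNA a change in the number of cells of a type and a change in RNA per cell cannot be told apart. Amn (-0.99) and Sparc (-0.50) were lower, but 1 member was called lower without either Jmjd1b-KO array, either WT array or double-KO replicate 2.

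Smooth muscle type contractile genes were higher in 8 of 10 members (80%) and lower in 2 (20%), with a median of 0.91. The shares over all genes were 28.3% and 23.5%. Acta2, the smooth muscle actin gene, read 7.50 and 7.19 in Jmjd1b-KO and 11.54 and 10.65 in double-KO, a rise of 3.75 ± 0.40 (adjusted p = 0.00102). Tagln and Cald1, which bind actin, rose by 3.01 and 2.34, and Cnn2 by 2.00. Cnn1 and Myl9 fell by 1.17 and 0.98; without either Jmjd1b-KO array 1 of the list was called lower. The WT arrays were higher still in Acta2, at 11.95 and 12.24, so the Jmjd1b-KO arrays were the low ones. With Jmjd1b present, 6 of the 10 fell on loss of Jmjd1a and 1 rose, and the interaction was positive for 7, reaching 6.49 ± 0.57 for Acta2 and 4.76 for Tagln. Fibroblast matrix genes had 6 of 11 members higher (54.5%) and 2 lower (18.2%), median 0.54. Col3a1 rose by 3.05 ± 0.18 and Fn1, fibronectin, by 0.81, while Thy1 and Pdgfrb fell by 1.05 and 1.09. The count of higher matrix genes was 2 without double-KO replicate 1 and 1 without Jmjd1b-KO replicate 2. Feeder fibroblast markers, measured for 6 of 7 with Lum flat, had array means of 6.56 to 6.67 in Jmjd1b-KO, 6.87 to 6.90 in double-KO and 8.03 to 8.15 in WT. Their part in these results was not tested.

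Interferon response genes took both directions. Of 16 measured, 8 were higher (50%), 6 of them by at least 1, and 5 lower (31.2%). The shares over all genes were 28.3% and 23.5%. Irf1, a transcription factor induced by interferon gamma, read 9.56 and 9.70 in Jmjd1b-KO and 12.37 and 12.38 in double-KO, a rise of 2.75 ± 0.07 (adjusted p = 2.74e-05). Beside Gbp2, the GTPase genes Gbp3 and Irgm1 rose by 1.95 and 1.76, and the immunoproteasome subunit Psmb8 by 1.29. B2m, the light chain of MHC class I, rose by 0.99, while H2-K1 (-0.39) and H2-D1 (0.03) had no call. The membrane proteins Ifitm3, Ifitm1 and Ifitm2 fell by 3.19, 1.85 and 0.97; Ifitm3 read 12.18 and 12.23 against 8.52 and 9.51. With Jmjd1b present 0 members rose and 7 fell on loss of Jmjd1a. Of those 7, 6, namely Gbp2, Irf1, Irgm1, Gbp3, Psmb8 and Oasl2, rose here, and each had a positive interaction. Without either Jmjd1b-KO array, 2 members were called lower.

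**Figure D4:**
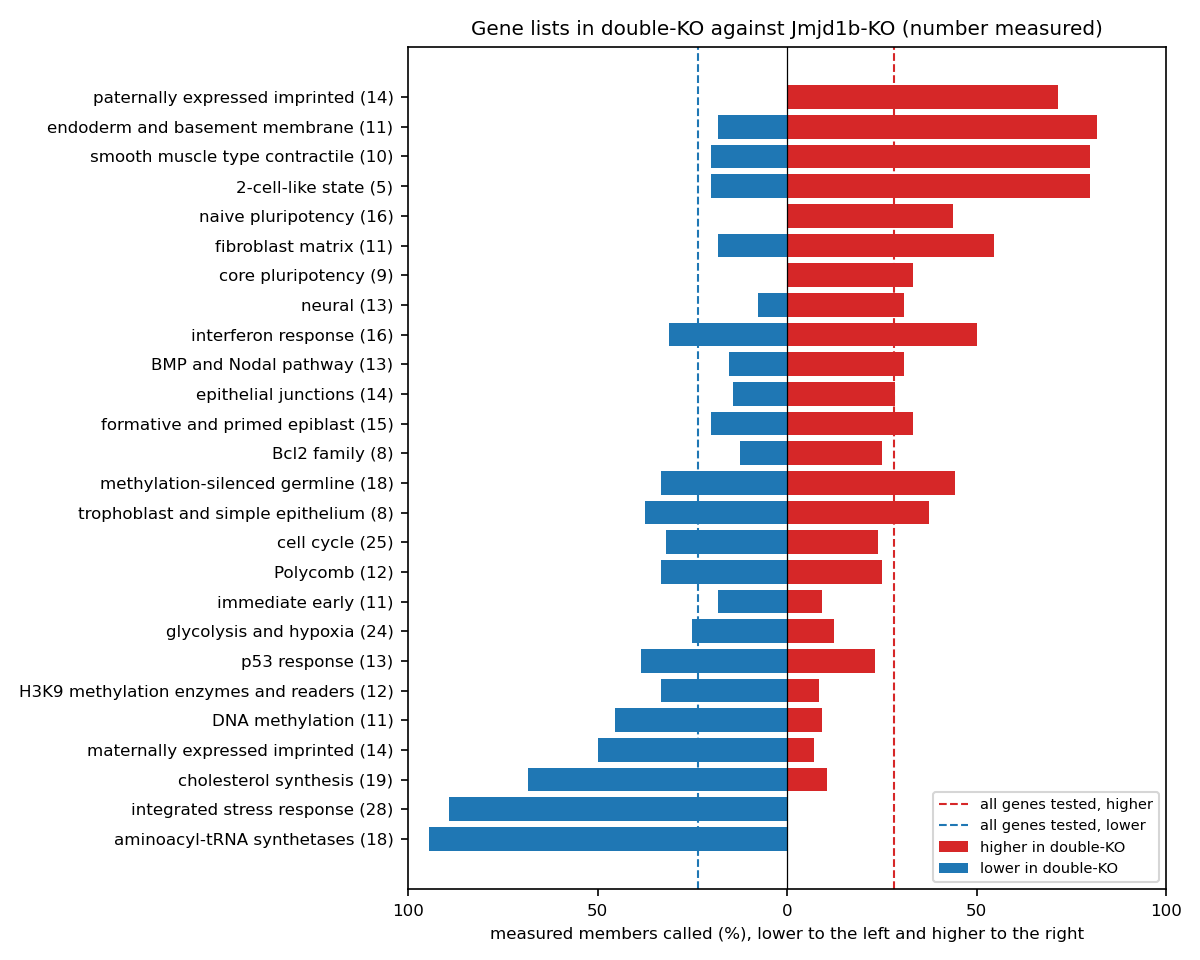
Share of the measured members of each gene list with 5 or more measured members called higher (red, to the right) or lower (blue, to the left) in double-KO against Jmjd1b-KO, with the number measured in brackets; dashed lines mark 28.3% and 23.5%, the shares over all 7181 genes. Synthetase, stress response and cholesterol genes reach farthest left, and endoderm, contractile, 2-cell-like and paternally expressed genes farthest right. The 2-cell-like bar rests on 5 of 18 listed genes, with Dux and the Zscan4 genes not among them.

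Cell cycle and survival genes had single large changes. Ccnd1, cyclin D1, read 10.34 and 10.49 in Jmjd1b-KO and 6.95 and 7.14 in double-KO, a fall of 3.37 on the log2 scale (SE 0.30). Ccne1 fell by 1.59 and the inhibitor Cdkn1a, p21, by 1.38, while the inhibitors Cdkn2a, Cdkn1b and Cdkn2b rose by 1.55, 1.38 and 0.50. Over the 25 members, 6 were higher and 8 lower, near the shares over all genes. Replication genes such as Mcm2, Mcm5 and Mcm7 lay between -0.09 and 0.07 with no call. Of 8 Bcl2 family genes, 2 were higher (25%) and 1 lower (12.5%), against 28.3% and 23.5% over all genes. The proapoptotic Pmaip1 (Noxa) and Bcl2l11 (Bim) rose by 1.68 ± 0.15 and 1.59 ± 0.28. Bik fell by 0.26, a call lost without any 1 of the 4 arrays compared. Pmaip1 read 9.93 and 9.72 in Jmjd1b-KO against 11.28 and 11.72 in double-KO. The p53 response had 3 of 13 higher (23.1%) and 5 lower (38.5%), with Mdm2 at -0.40. Without double-KO replicate 1 the p53 counts were 5 and 2, without double-KO replicate 2 they were 1 and 4, and without either Jmjd1b-KO array 1 and 2. Without either Jmjd1a-KO array 10 cell cycle genes were called higher, and 3 and 4 were called lower without Jmjd1b-KO replicates 1 and 2, and 5 without double-KO replicate 2.

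Epithelial and trophoblast genes were mixed, with 3 of 8 trophoblast list members higher (37.5%) and 3 lower (37.5%). Tfap2c, a factor of trophoblast and germ cells, read 9.79 and 9.53 in Jmjd1b-KO and 12.14 and 12.17 in double-KO, a rise of 2.50 ± 0.11. With Jmjd1b present it rose by 2.48, and the interaction was 0.02 ± 0.16. Krt8 and Krt18 rose by 1.22 and 0.75, whereas Plet1 and Krt7 fell by 0.94 and 0.61, and Cdx2, Elf5 and Gata3 were flat. The desmosomal gene Dsp read 7.85 and 7.86 against 11.13 and 10.58 (adjusted p = 0.000562), and Cdh1, E-cadherin, fell by 0.62. Of 14 junction genes, 4 were higher (28.6%) and 2 lower (14.3%), against 28.3% and 23.5% over all genes. Neural genes had 4 of 13 higher (30.8%) and 1 lower (7.69%): Fabp7, at 2.30 ± 0.68, and Sox11 and Map2 rose, and Tubb3 fell by 1.41 ± 0.43. The neural counts ranged from 1 to 7 higher as single arrays were left out, 1 without either Jmjd1b-KO array, 7 with either Jmjd1a-KO array left out and 2 without double-KO replicate 1. Tubb3 lost its call without double-KO replicate 1, either Jmjd1b-KO array or either WT array. Of the mesoderm list only Eomes was measured, and it rose by 0.51 ± 0.14, a call lost without double-KO replicate 2 or either Jmjd1b-KO array. Among 11 immediate early genes, Fos and Egr1 fell by 5.16 and 3.85 and Klf6 rose by 1.66, while Ier3 (-1.90 ± 0.97) and Jun (-0.34) had no call; 2 of the list were called higher without double-KO replicate 2 or either Jmjd1a-KO array.

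The interaction tested whether the change that went with Jmjd1a status differed without and with Jmjd1b. Among its groups, double-KO and Jmjd1b-KO also differ in parental line and in how Cre was supplied. The interaction cannot tell these apart from Jmjd1a. It was positive for 1015 genes and negative for 879. Of the 3721 genes called here, 1687 (45.3%) also had an interaction call. Genes called in both comparisons numbered 942. Of the calls here they were 25.3%, beside 18.1% of all genes called with Jmjd1b present. Of the calls with Jmjd1b present they were 72.4%, beside 51.8% of all genes called here. Of the 942, 471 were higher in both and 339 lower in both, while 81 were higher here and lower there and 51 the reverse. The median size of the change was 0.31 without Jmjd1b and 0.18 with it. Across the 7181 genes, which are not independent replicates, the changes had a Pearson correlation of 0.43 and a Spearman correlation of 0.36. The comparisons share no array, but both knockout groups come from the Jmjd1a-deficient line. The interaction counts were sensitive to single arrays: without Jmjd1b-KO replicate 2 they were 352 and 277, without replicate 1 of that group 411 and 311. Without WT replicate 1 they were 482 and 357, without WT replicate 2 446 and 388, and without double-KO replicate 1 653 and 533. The counts with Jmjd1b present, 732 and 569, also moved, to 107 and 102 without WT replicate 1 and 80 and 59 without WT replicate 2. They were 394 and 308 without Jmjd1a-KO replicate 1, 1095 and 1240 without its replicate 2, and 341 and 250 without either Jmjd1b-KO array. Quantile normalization and median centring put the share of positive interaction calls at 47.1% and 48.3%, against 53.6% as deposited, and the share of higher calls with Jmjd1b present at 50.5% and 45.5%, against 56.3%.

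**Figure D5:**
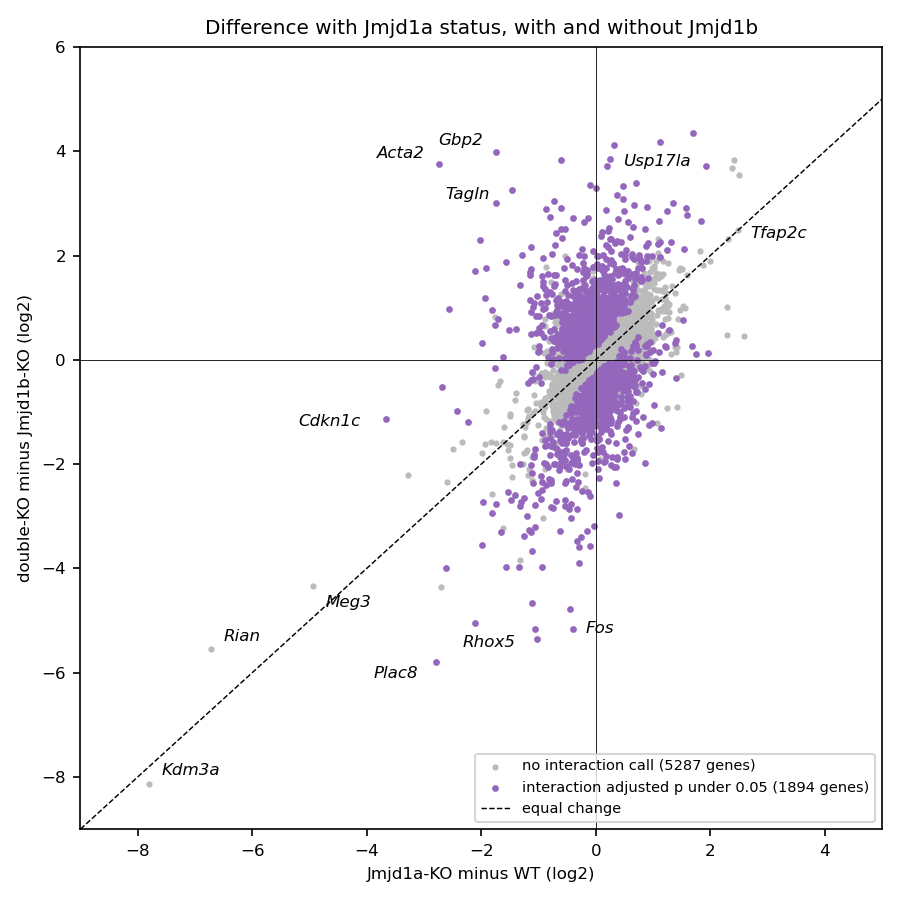
Each point is 1 of 7181 genes, with the log2 difference between Jmjd1a-KO and WT on the horizontal axis and that between double-KO and Jmjd1b-KO on the vertical axis; the 1894 genes with an interaction call are purple. Kdm3a, Rian and Tfap2c lie near the dashed line of equal change, whereas Acta2 and Gbp2 lie high on the left and Fos, Rhox5 and Plac8 far below it.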

How the data were processed

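RNA of 8 ES cell samples was measured on 8 arrays, 2 in each of 4 groups, assigned by the titles. The deposited table holds log2 values made by the authors, 1 per probe set and array. R 2.7.2 is named in the submitters' processing notes; the sources used here do not say how background was corrected or arrays were normalized, and the log2 unit was read from the values. The number of arrays limits the precision, and signal over background was not analysed here.

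Of 11502 probe sets spanning at least 0.01, 10405 had 1 gene symbol in the platform's table, 364 several and 733 none; only the first kind was tested. For each of 7181 genes the probe set with the highest mean was used. A model with 4 group means was fitted to all 8 arrays with limma 3.58.1 in R 4.3.3 (4 residual degrees of freedom, prior degrees of freedom 1.91, prior variance 0.00676) and Benjamini-Hochberg adjustment; the scripts were tested on simulated data. Deviations of same-numbered arrays correlated between -0.12 and 0.22, so arrays were not paired. Alternatives covered scaling, filters, probe set choice, array weights, the replicate block and leaving out each array.

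Named genes were Kdm3a, Kdm3b, the 15 largest rises and 15 largest falls past the threshold with arrays that did not overlap, the 8 largest interactions each way among genes past both thresholds, and measured members of 29 gene lists. The comparison, lists and motifs were chosen with earlier results of these data known.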

Additional observations from a re-analysis of the deposited data

Results flagged for a closer look

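The interaction tests whether the change that went with Jmjd1a status differed without and with Jmjd1b. It cannot tell Jmjd1a status apart from parental line or how Cre was supplied. By limma's moderated test it was positive for 1015 genes and negative for 879. The 8 largest positive values were in Acta2 (6.49), Gbp2 (5.73), Tagln (4.76), Anxa1 (4.72), Ptn (4.44), Fabp7 (4.32), Rpl39l (3.81) and Col3a1 (3.79), on the log2 scale. Anxa1, an annexin, read 7.21 and 7.22 in Jmjd1b-KO and 10.93 and 10.02 in double-KO, and fell by 1.46 with Jmjd1b present. Rpl39l, a ribosomal protein paralog of the testis, rose by 1.71 here and fell by 2.10 there.

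The 8 largest negative values were in Fos (-4.76), Rhox5 (-4.33), Plekha4 (-4.32), Nupr1 (-4.10), Bcat1 (-3.60), Pcolce (-3.56), Mymx (-3.47) and Laptm5 (-3.37). Bcat1, the cytosolic branched-chain transaminase, read 11.15 and 11.28 in Jmjd1b-KO and 6.72 and 7.91 in double-KO, with a difference of -0.30 with Jmjd1b present. These values are those of the brightest usable probe set. In double-KO against Jmjd1b-KO, the 3 usable probe sets of Bcat1 ranged from -3.90 to -0.07 and 2 were called. The 4 of Laptm5 ranged from -2.97 to -0.07 and 3 were called.

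Control probe sets for repeat transcripts, which carry no gene symbol and were outside the tests, were lower in double-KO. The B1 probe set read 11.84 and 12.21 in Jmjd1b-KO and 10.89 and 11.04 in double-KO, a difference of -1.06. One B2 probe set read 10.88 and 10.88 against 10.07 and 9.79, a difference of -0.95. Another B2 probe set, near the top of the scale at 14.57 and 14.57 against 14.44 and 14.35, differed by -0.18. With Jmjd1b present the first of these differed by 0.34 and the others by -0.38 and -0.07.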

How the results depend on the processing

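With flat genes kept in the fit, calls were 1118 higher and 981 lower, 239 and 196 for the interaction, and 109 and 94 for Jmjd1a-KO against WT. An adjusted p under 0.01 left 1245 and 997, 305 and 233, and 124 and 112 in the same order, and a change of at least 1 left 483 and 386, 378 and 277, and 93 and 113. Array weights gave 484 genes higher in Jmjd1a-KO. Leaving out 1 array gave 1199 to 2305 higher and 997 to 1919 lower, 352 to 1430 positive and 277 to 1132 negative interactions, and 80 to 1095 higher and 59 to 1240 lower in Jmjd1a-KO. Kdm3a ranged from -8.22 to -8.04 and Kdm3b from -0.02 to 0.58. Klf4 changed sign to 0.61 without double-KO replicate 1 (-0.90 without replicate 2), and Slc38a4 to -0.47 with the mean of its probe sets; the cause was not tested. With the replicate number as a block, calls were 1919 higher and 1587 lower, 866 and 744 for the interaction, and 599 and 444 for Jmjd1a-KO, each within 1.5 times the count without it. Numbers crossed in double-KO, an alternative chosen after seeing the data, gave 2074 and 1720. Of 250 named genes called, between 179 and 250 kept their call when 1 array was left out or another scaling, weighting or probe set rule was used, and 164 with flat genes kept. Precision rests on 2 arrays a group.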

Other observations

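X-linked genes, placed by the GRCm38.p6 gene table, were higher in double-KO as a group. Of 264 measured, 117 (44.3%) were called higher and 40 (15.2%) lower, with a median difference of 0.22, against 27.8% higher, 23.8% lower and a median of 0.02 over 6896 autosomal genes. The median was 0.14 after quantile normalization, 0.15 after median centring, 0.19 without double-KO replicate 1 and 0.27 without replicate 2. With Jmjd1b present, the X-linked median was 0.10. Xist, the RNA that coats an inactive X chromosome, was flat at 5.89, 6.18 and 7.04 in its 3 probe sets.

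Glycolysis and hypoxia genes held a few large falls among many members without a call. Of 24 measured, 6 were lower (25%) and 3 higher (12.5%), against 23.5% and 28.3% over all genes. The median of the 24 was 0.02. Adm, a hypoxia-induced peptide gene, read 10.48 and 10.66 in Jmjd1b-KO and 6.99 and 8.08 in double-KO. The glycolytic enzyme genes Pfkp and Hk2 fell by 1.70 and 1.32, and Pfkfb3 by 1.21, while Gapdh (0.02), Pgk1 (0.03) and Tpi1 (0.03) had no call. Pfkp is uncertain, since its 3 usable probe sets ranged from -1.70 to -0.35 and only 1 was called. Without double-KO replicate 1, or without either Jmjd1b-KO array, 1 member was called lower, and 8 were without either Jmjd1a-KO array. Those called higher numbered 1 without either double-KO array, 0 without either Jmjd1b-KO array and 6 without either Jmjd1a-KO array.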
